A study of Drosophila melanogaster with 3 samples.

Results

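The Hippo pathway genes described here are hpo, wts, sav, mats, yki, sd, ex, Mer, kibra and ft. They were chosen by symbol in the Ensembl annotation of the fly genome and make up 10 of the 13968 protein-coding genes on the main chromosomes. No measured value was used to choose them, but they were chosen with earlier results of these data known. The question was where the protein CG9609 was mapped on and near these genes.

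Chromatin immunoprecipitation followed by sequencing (ChIP-seq), which recovers the DNA that a protein is attached to and maps it to the genome, was done on whole Drosophila melanogaster embryos. The only group, CG9609-GFP, was a transgenic line with a stable insertion that makes CG9609 joined at its C-terminus to green fluorescent protein (GFP). Embryos of both sexes were 0 to 24 h old, and the precipitating antibody was directed at GFP. There were 3 replicates, which the labels call biological, and no other genotype, treatment or age. A signal from whole embryos of mixed age does not say in which cells or at which stage the protein was present. The labels used here do not state the promoter that drives the fusion.

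The authors' set of 3747 regions in genome build dm6 that passed their limit on the irreproducible discovery rate is called the reproducible set. The name does not mean that each region was found in every replicate. The set held exactly the 3747 regions of highest signal in the list called on the pooled replicates, which had 29054 regions. The replicate lists held 30000, 29898 and 30000 regions and run down to weak background. The signal is the authors' own value per region, on a scale not given in the sources used here, so regions are compared by rank within a list, with rank 1 the strongest. Of the reproducible regions, 55.4% had a summit within 100 bp among the 3747 strongest regions of every replicate. Read depth is unknown.

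The Hippo pathway limits organ growth through a chain of kinases. At the apical membrane the cadherin Fat, the FERM proteins Expanded and Merlin and the WW protein Kibra feed into this chain. At its head the kinase Hippo works with the adaptor Salvador. Hippo activates the kinase Warts, which works with Mats, and Warts phosphorylates the coactivator Yorkie and keeps it out of the nucleus. Free Yorkie pairs with the DNA-binding protein Scalloped to switch on genes of growth and survival, and ex, Mer and kibra are themselves known targets in growing discs.

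CG9609-GFP peaks lay at 8 of the 10 genes. A reproducible summit lay within 500 bp of a transcription start site (TSS) at hpo, sav, yki, Mer and kibra. That is 5 of 10, or 50% (95% Wilson interval 23.7 to 76.3%, counting error only), where 18.8% of all protein-coding genes had one. Away from promoters, wts, sd, ex and kibra had a reproducible summit in an intron over 500 bp from any TSS. That is 4 of 10, or 40% (95% Wilson interval 16.8 to 68.7%), where 6.16% of genes with an intron had one. Among all genes with at least 5000 bp of intron the share was 27.4%. The members were chosen and not sampled, so the intervals do not test a difference from these shares. The ft and mats genes had neither. At least 1 reproducible summit in the gene or its promoter was found at 8 of 10 genes, and at 22.6% of all protein-coding genes. Among the 1020 genes of at least 20000 bp, a length that sd, kibra and ft reach, the share was 46%.

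The promoter count depended on the replicates used. Among the 3747 strongest regions of each replicate, a promoter summit was found at 4 members in replicate 1, 5 in replicate 2 and 5 in replicate 3, a mean of 4.67 ± 0.577 (SD, n = 3). The shares of all protein-coding genes by the same count were 16.8%, 18.7% and 18.5%. The hpo, Mer and kibra promoters were found in all 3 replicates, yki in replicates 1 and 2, wts in replicate 2 alone, and sav and ex in replicate 3 alone. When a summit had to be shared within 100 bp by the strongest regions of all 3 replicates, the count was 3 (hpo, Mer and kibra), beside 11.8% of all protein-coding genes. It was also 3 without replicate 1, beside 14%, and 3 without replicate 2, beside 13%. Without replicate 3 it was 4, with yki added, beside 13.3%. Intronic summits were found at 4, 3 and 5 members in replicates 1, 2 and 3 (mean 4 ± 1, SD, n = 3), with wts, ex and kibra in each. The shares of all genes with an intron were 6.42%, 6.23% and 6.2%.

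**Figure D1:**
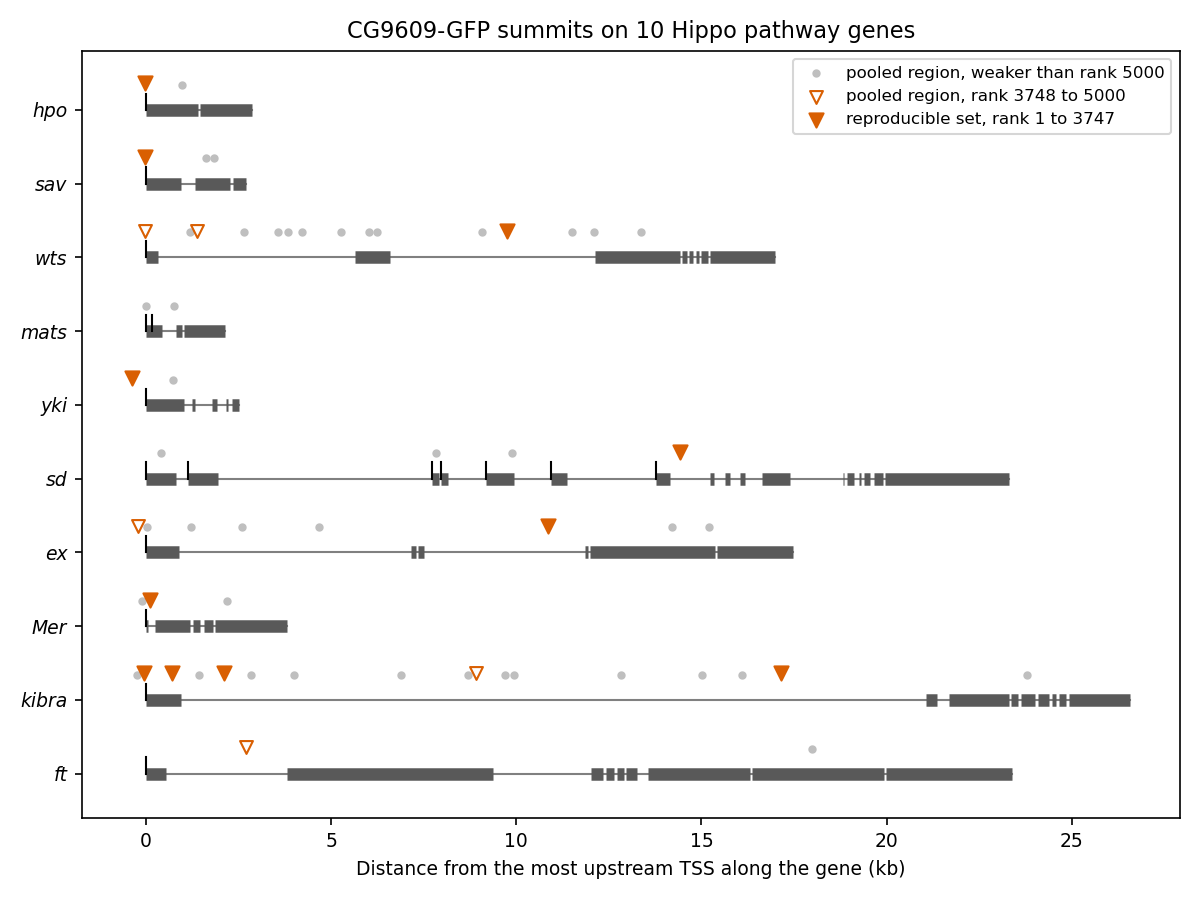
Summits along the 10 genes, drawn to scale as distance in kb from the most upstream TSS, with exons as boxes, introns as lines and TSSs as upright ticks. Filled triangles are the 11 reproducible summits, open triangles are pooled regions beyond that set down to rank 5000, and grey points are weaker ones; kibra carries 4 filled triangles, and ft and mats carry none.

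The upstream genes come first. The ft gene codes for the large cadherin that acts as a receptor for its partner Dachsous, and it spans chr2L:4198404-4221796 on the minus strand. It had no reproducible summit, and the nearest lay 60971 bp upstream of its TSS, 381 bp upstream of a TSS of tutl. No pooled region lay within 500 bp of the ft TSS. The only promoter region in any replicate list was rank 29931 of the 30000 in replicate 3. The strongest ft region was intronic, 2696 bp into the gene, with rank 3789 in the pooled list, just below the reproducible set. Across replicates 1, 2 and 3 that region ranked 18261, 4689 and 2885, so they were far apart and only replicate 3 placed it among its strongest 3747.

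The ex gene (chr2L:431227-448701, plus strand) codes for a FERM-domain scaffold that helps to assemble the kinases at the membrane. Its reproducible peak was an intronic region of 98 bp at chr2L:442080-442177, with the summit 10869 bp downstream of the ex TSS. That is the smallest width in the pooled list. The replicate regions there were wider, as at chr2L:441912-442275 in replicate 1. The nearest TSS of any protein-coding gene was that of crq, a scavenger receptor gene, at 9206 bp from the summit. The peak had rank 551 in the pooled list, and ranks 517, 318 and 923 in replicates 1, 2 and 3 (mean 586 ± 308, SD, n = 3). It was among the strongest regions of each replicate, and the replicate summits fell within 38 bp of the pooled one. The ex promoter itself was weaker. A region whose summit was 206 bp upstream had pooled rank 4163, below the reproducible set. Its ranks were 5082 in replicate 2 and 2776 in replicate 3, and replicate 1 had no summit within 100 bp. A reproducible peak of rank 2180 also lay 966 bp upstream of the ex TSS, outside the 500 bp window, with no other protein-coding TSS nearer.

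The Mer gene (chrX:19689697-19693500, minus strand) codes for Merlin, a FERM-domain protein that acts with Expanded and Kibra. It carried the strongest peak of the 10 genes, at chrX:19693202-19693591, with pooled rank 536. Its summit lay in the first intron, 103 bp downstream of the TSS. In replicates 1, 2 and 3 the peak ranked 370, 946 and 499 (mean 605 ± 302, SD, n = 3), highest in replicate 1 and lowest in replicate 2. The summit positions hardly moved, at 103, 107 and 98 bp from the TSS (mean 103 ± 4.51 bp, SD, n = 3). Over all reproducible promoter summits, 83% lay upstream of the TSS, so a summit inside the gene was the less common position.

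The kibra gene (chr3R:14697689-14724261, minus strand) codes for a WW-domain scaffold that binds Merlin and Expanded. It carried 4 reproducible summits, more than any other member, and 0.78% of all protein-coding genes had 4 or more in the gene or promoter. Longer genes had such a count more often, and among the 1020 genes of at least 20000 bp the share was 8.14%. The kibra gene is 26573 bp long. The promoter summit lay 50 bp upstream of the only TSS, in a peak at chr3R:14724116-14724505 with pooled rank 1177. That peak ranked 996, 961 and 1338 in replicates 1, 2 and 3 (mean 1098 ± 208, SD, n = 3). The summits lay 10, 95 and 45 bp upstream of the TSS, so all were upstream, the one in replicate 2 farthest from the TSS.

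The other kibra summits lay 705 bp into the gene in the coding part of the first exon, and 2109 and 17155 bp into the gene in its first intron of 20121 bp. Successive summits were 755, 1404 and 15046 bp apart, so 3 of the 4 sat close to the start of the gene. The peak at 2109 bp had pooled rank 1182 and ranked 2115, 1174 and 1317 in replicates 1, 2 and 3. The peak at 17155 bp had pooled rank 1573 and ranked 955, 2881 and 1391. The exonic peak had pooled rank 1575 and ranked 1051, 2912 and 1514. All 4 were among the 3747 strongest regions of each replicate. The TSS nearest to the distal summit was that of Meltrin, a gene for a membrane metalloprotease, at 9814 bp.

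The windows around these upstream summits are shown because they hold the Mer and ex peaks, which rank highest among the 10 genes, and the kibra summits with motif matches. Each window reaches 50 bp to both sides of the summit, on the strand of the gene, without bases of untranslated regions, and was read from the RefSeq genome assembly of build dm6. Capitals mark matches to any of 6 motifs searched on both strands: GGAATG (Scalloped), TATCGATA (DREF), CGATA (the core that BEAF-32 and DREF share), GAGAG (GAGA factor), CAGGTA (Zelda) and CACGTG (E-box). Every TATCGATA holds a CGATA on each strand, so these 2 motifs overlap.
Mer summit 103 bp downstream of the TSS, chrX:19693347-19693435, minus strand: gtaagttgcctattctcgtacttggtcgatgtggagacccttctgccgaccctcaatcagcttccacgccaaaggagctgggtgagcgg
ex summit 10869 bp downstream of the TSS, chr2L:442046-442146, plus strand: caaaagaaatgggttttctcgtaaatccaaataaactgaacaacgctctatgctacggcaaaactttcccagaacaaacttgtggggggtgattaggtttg
kibra summit 50 bp upstream of the TSS, chr3R:14724262-14724361, minus strand: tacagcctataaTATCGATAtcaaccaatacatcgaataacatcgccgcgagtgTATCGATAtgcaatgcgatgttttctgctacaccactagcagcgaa
kibra summit 2109 bp downstream of the TSS, chr3R:14722102-14722202, minus strand: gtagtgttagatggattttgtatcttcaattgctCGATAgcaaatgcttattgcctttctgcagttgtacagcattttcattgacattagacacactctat
kibra summit 17155 bp downstream of the TSS, chr3R:14707056-14707156, minus strand: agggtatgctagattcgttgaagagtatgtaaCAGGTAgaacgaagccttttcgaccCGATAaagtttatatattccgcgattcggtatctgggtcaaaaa

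The kibra promoter window held TATCGATA at 2 places, from 88 to 81 bp and from 46 to 39 bp upstream of the TSS. DREF is a factor of proliferation-gene promoters that binds this palindrome. Of all 3747 reproducible summits, 2.99% had the motif within 50 bp, and 0.374% of windows centred 300 bp away had it. CGATA was found at 20.5% of summits and 11.6% of windows 300 bp away. Besides the kibra promoter it was found at the kibra summits 2109 and 17155 bp into the gene. The distal kibra window also held CAGGTA, found at 1.73% of summits and 2.4% of windows 300 bp away. Neither the Mer nor the ex window held any of the 6 motifs, nor did the exonic kibra window. The 8-base word most over-represented at the summits outside the 10 genes, ATCGATAG, was found in 3.31% of all summit windows and in none of the 11 at these genes. A match is a description of the letters and not of a binding site.

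In the kinase cassette, sav and wts differed in where the signal lay. The sav gene (chr3R:23058609-23061304, minus strand) codes for Salvador, the adaptor that holds Hippo and Warts together. Its promoter peak at chr3R:23061150-23061539, summit 41 bp upstream of its TSS, was only just in the reproducible set, with pooled rank 3736. It ranked 4554 in replicate 2 and 3407 in replicate 3. In replicate 1 no summit lay within 100 bp, and the nearest, of rank 9581, lay 141 bp away. The promoter is shared with Ublcp1, a gene for a nuclear phosphatase on the opposite strand, whose TSS lies 189 bp from that of sav and 148 bp from the summit. The peak cannot be assigned to either gene from its position alone.

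The wts gene (chr3R:30789625-30806619, minus strand) codes for Warts, the kinase that phosphorylates Yorkie. Its reproducible peak was intronic, at chr3R:30796684-30797073, with the summit 9740 bp into the gene and pooled rank 1496. In replicates 1, 2 and 3 it ranked 1253, 2374 and 1688 (mean 1772 ± 565, SD, n = 3), among the strongest of each. The wts promoter had a weaker region, 19 bp upstream at its summit, of pooled rank 4185. Replicate 2 ranked this promoter region 2991, but it fell to rank 16928 in replicate 1 and 6323 in replicate 3. The nearest reproducible summit to the TSS lay 1916 bp upstream, 82 bp upstream of a TSS of cindr, an adaptor gene. Of the 29054 pooled regions, 15 lay on wts and its promoter, 11 of them intronic. Only 1 of the 15 was in the reproducible set, and the weakest had rank 20299. The same count was not made over all genes.

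The windows of the wts intron and the sav promoter are shown, in the same form, because each held a match to the motif list.
wts summit 9740 bp downstream of the TSS, chr3R:30796829-30796929, minus strand: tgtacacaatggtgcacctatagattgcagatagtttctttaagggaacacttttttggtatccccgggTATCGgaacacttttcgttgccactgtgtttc
sav summit 41 bp upstream of the TSS, chr3R:23061305-23061395, minus strand: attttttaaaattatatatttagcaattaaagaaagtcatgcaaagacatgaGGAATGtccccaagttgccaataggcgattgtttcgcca

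The sav window held GGAATG, the motif bound by Scalloped and its mammalian TEAD relatives, from 39 to 34 bp upstream of the TSS and 2 bp from the summit. That motif was found at 3.44% of all reproducible summits and at 4.24% of windows 300 bp away, so it was not more common at the summits. The wts window held 1 CGATA, on the opposite strand to that printed, 19 bp from the summit.

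The hpo gene (FBgn0261456, chr2R:19493996-19496856, minus strand) codes for the kinase at the head of the cassette. Its promoter peak was a region of 98 bp at chr2R:19496874-19496971, of pooled rank 578. This was again the smallest width in the pooled list, and the replicate regions there were wider. The summit of the pooled peak was 32 bp upstream. The replicates ranked it 452, 750 and 579 (mean 594 ± 150, SD, n = 3), and placed the summit 15, 45 and 25 bp upstream of the TSS. No other protein-coding TSS lay within 500 bp, and the window around the summit held none of the 6 motifs. The mats gene (chr3R:22421161-22423302, plus strand), which codes for the Mob-family partner of Warts, had no reproducible summit in the gene or promoter. The nearest lay 9926 bp upstream, at a promoter of lqfR. The pooled list had a mats promoter region at rank 25109, with its summit 2 bp from a TSS, and replicate 3 had one in the same place at rank 6988. The promoter region of replicate 1, at rank 17113, was a different one, with its summit 423 bp downstream of the inner of the 2 mats TSSs. Replicate 2 had no promoter region. A mats intronic region had pooled rank 5852, with ranks 10893 in replicate 2 and 4209 in replicate 3. Replicate 1 had no region counted as intronic, but its promoter region overlapped this one.

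The nuclear pair closes the pathway. The yki gene (chr2R:24065975-24068485, minus strand) codes for Yorkie, the coactivator that the kinases restrain. Its promoter peak, of 120 bp at chr2R:24068817-24068936, had pooled rank 1070 and a summit 385 bp upstream of yki. The summit was nearer to Gpat4, a glycerolipid synthesis gene on the opposite strand. It lay 113 bp downstream of a Gpat4 TSS that is 272 bp from that of yki. It also lay 180 bp upstream of another Gpat4 TSS, which is 565 bp from that of yki. Position alone does not assign the peak to yki or to Gpat4. If a peak counts for its nearest TSS alone, yki loses its promoter peak and the count over the members is 4. By that rule 13.7% of all protein-coding genes had one. Replicate 1 ranked the peak 1097 and replicate 2 ranked it 681. In replicate 3 the nearest summit, of rank 1283, lay 181 bp away and beyond 500 bp from the yki TSS. The yki window held CAGGTA 14 bp from the summit.

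The sd gene (chrX:15804370-15827682, plus strand) codes for Scalloped, the TEAD-family protein that brings Yorkie to DNA, and has 7 TSSs. None had a reproducible summit within 500 bp. An intronic peak at chrX:15818600-15818989 lay 644 bp downstream of the last TSS. Its pooled rank of 3710 was close to the weakest of the set. Ranks in replicates 1, 2 and 3 were 3251, 8306 and 3344 (mean 4967 ± 2892, SD, n = 3), and replicate 2 alone placed it outside the strongest 3747. With a promoter window of 1000 bp this summit counts as a promoter peak. The strongest region within 500 bp of any sd TSS had rank 14759 in the pooled list, 5289 in replicate 2 and 7958 in replicate 3. These were different regions at different sd TSSs, and replicate 1 had none.

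**Figure D2:**
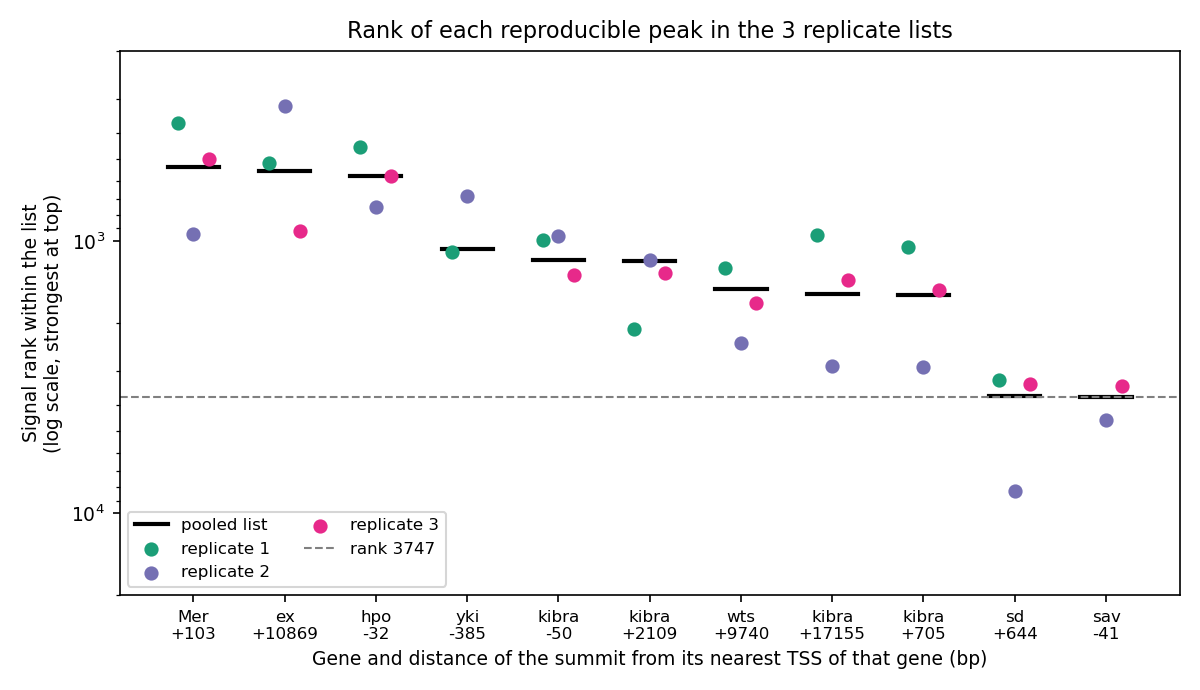
Signal rank of the 11 reproducible peaks in the pooled list (bars) and in the 3 replicate lists (points), on a log axis with the strongest at the top and the dashed line at rank 3747; a missing point means no summit within 100 bp. The Mer, ex and hpo peaks rank between 318 and 946 in every replicate. The sd and sav peaks lie at the line in the pooled list and below it in replicate 2, at ranks 8306 and 4554.

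Over the 11 reproducible peaks at the 10 genes, the median pooled rank was 1182, and 9 lay in the stronger 1873 regions of the set. All 3 replicate lists had a summit within 100 bp for 9 of the 11, a count made for these peaks only. For 8, the 4 kibra peaks among them, it was among the 3747 strongest regions of each, as for 55.4% of all reproducible regions. The 3 exceptions were the yki, sd and sav peaks. Best promoter ranks of the 5 members with a promoter peak had a median of 1070, and the median over all 2623 genes with one was 1609. At any rank, all 10 members had a promoter region in at least 1 replicate list, as did 68.6% of protein-coding genes, so presence in a whole list separates genes little.

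Regions just beyond the weakest reproducible rank show how the set's limit falls on these genes. Just inside were the sd intron at rank 3710, with signal 90.6, and the sav promoter at rank 3736, with signal 90.3. Just outside were the ft intron at rank 3789, with signal 89.2, and a wts intronic region 1383 bp into the gene at rank 3915, with signal 87.1. The ex and wts promoters followed at ranks 4163 and 4185, with signals 83.5 and 83.2. A further kibra intronic region, 8903 bp into the gene, had rank 4349. Replicate 2 ranked it 2076 and replicate 3 ranked it 3643, so both placed it among their strongest, and replicate 1 had no summit within 100 bp. With the 5000 strongest pooled regions in place of the reproducible set, a limit chosen after seeing the data, ex and wts gained a promoter peak and ft an intronic one.

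**Figure D3:**
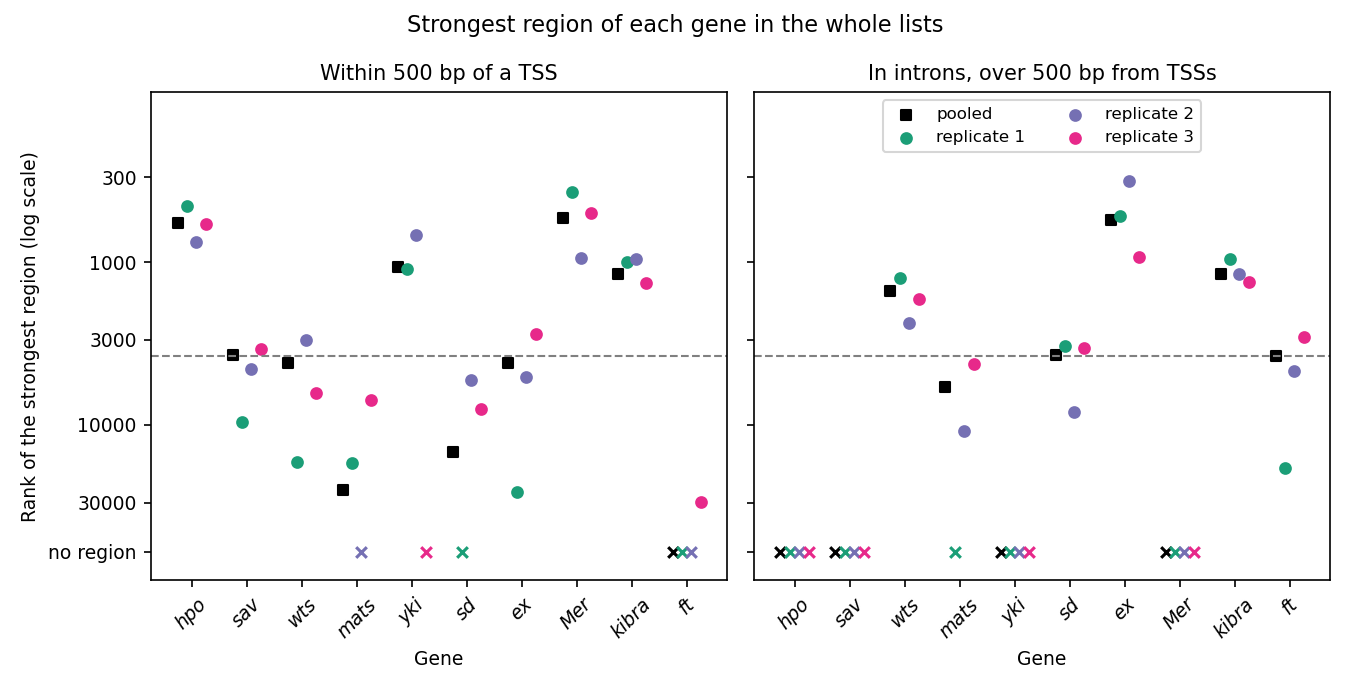
Rank on a log axis of the strongest region of each gene within 500 bp of a TSS (left) and in introns away from TSSs (right), in the pooled list (squares) and the 3 replicate lists (circles), with crosses for no region and the dashed line at rank 3747. The hpo, Mer and kibra promoters and the wts, ex and kibra introns lie above the line in every list, and mats lies below it in every list.

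The members differ widely in intron length. The wts, sd, ex, kibra and ft genes have at least 5000 bp of intron, and 4 of these 5 had an intronic peak, where 27.4% of all genes with that much intron had one. The other members have 57 to 986 bp of intron, which leaves little room for a summit. None had an intronic peak over 500 bp from a TSS, the first-intron summit of Mer being counted at its promoter. Whether intronic peaks depend on intron length was not tested. Per 10 kb of intron over 500 bp from TSSs, the density was 0.907 summits for wts, 0.937 for sd, 0.926 for ex and 0.96 for kibra. For ft, with 6541 bp of such intron, it was 0. Each density above 0 rests on 1 or 2 summits. Pooled over the 10 members it was 0.81 per 10 kb, and over all genes with an intron 0.21 per 10 kb.

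Other genes of the pathway were counted in 5 lists by role, and 20 of 57 (35.1%) had a reproducible promoter summit, against 18.8% of all protein-coding genes. Apical polarity regulators, a list that also holds basolateral genes such as dlg1, had the highest share, 5 of 9 (55.6%). They include par-6 at rank 404, with its summit 435 bp from the par-6 TSS and nearest to a TSS of CG8188, aPKC at rank 1014, dlg1 at rank 1285 and sdt at rank 2935, with crb as the fifth. The Par-6 and aPKC proteins form an apical polarity complex, Dlg1 belongs to a basolateral module, Sdt is a partner of Crumbs, and Crumbs recruits Expanded to the membrane. In replicates 1, 2 and 3 the par-6 peak ranked 289, 477 and 410, while that of sdt ranked 10243, 3931 and 2547. The par-6 peak was thus strong in each list, and the sdt peak was among the strongest in replicate 3 alone.

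Of the kinase cassette regulators, 8 of 18 (44.4%) had a promoter summit. The strongest were Sik3, for a kinase that phosphorylates Salvador, at rank 869, mts, for the catalytic subunit of a phosphatase of Hippo, at rank 1315, Rassf, for a competitor of Salvador, at rank 1374, and hppy, for a kinase that acts on Warts beside Hippo, at rank 1521. The mts summit was nearer to a TSS of Rack1. All 4 were among the 3747 strongest in each replicate, and Sik3 ranked 481, 1692 and 1096 in replicates 1, 2 and 3. The other 4 were Su(dx), slmb, Nedd4 and msn. In the Fat and Dachsous branch, 2 of 8 (25%) had one: dco, for a casein kinase that phosphorylates Fat, at rank 940, and app, for a palmitoyltransferase, at rank 1365. The dco peak ranked 959, 859 and 1104 in the replicates.

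Yorkie and Scalloped partners had a promoter summit at 3 of 9 genes (33.3%). These were mask, for a cofactor of Yorkie, at rank 954, 14-3-3zeta, for a protein of the family that holds phosphorylated Yorkie in the cytoplasm, at rank 1027, and Hipk, for a kinase that promotes Yorkie activity, at rank 1927. The 14-3-3zeta peak ranked 330, 4630 and 1223 in replicates 1, 2 and 3, so replicate 2 placed it outside its strongest 3747. Among genes that Yorkie is known to activate, 2 of 13 (15.4%) had a promoter summit, a share near the 18.8% of all protein-coding genes. These were Krn, for an EGF receptor ligand, at rank 729, where the nearest TSS was that of Ndfip, and dlp, for a glypican, at rank 3420. The dlp peak had no summit within 100 bp in replicate 1 and ranked 3768 and 2004 in replicates 2 and 3. An intronic summit was found at 6 of these 13 genes, Diap1, Myc, E2f1, dally, dlp and vn. The counts were 0 of 8 in the Fat and Dachsous branch, 3 of 9 polarity regulators, 4 of 18 kinase cassette regulators and 2 of 9 partners, beside 6.16% of all genes with an intron. Many of these genes have long introns. Of the Yorkie target genes, 10 have at least 5000 bp of intron and 6 of those had an intronic summit. Over the 5 lists it was 14 of 32 such genes, beside 27.4% of all genes with that much intron. The differences between the lists were not tested.

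**Figure D4:**
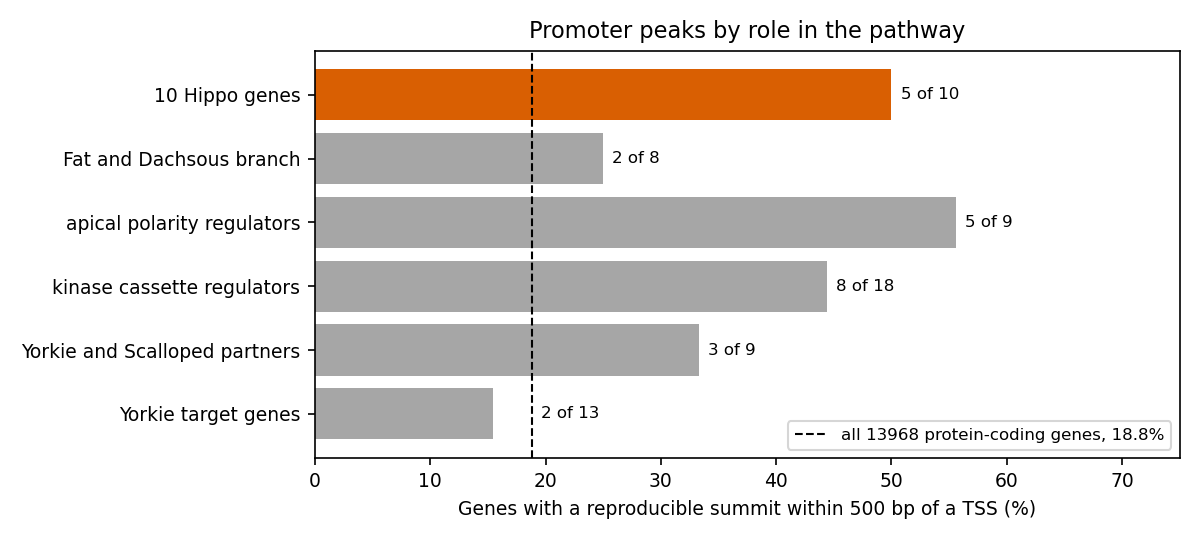
Share in percent of the genes of each role with a reproducible summit within 500 bp of a TSS, with the count beside each bar and the dashed line at the 18.8% of all 13968 protein-coding genes. The 10 Hippo genes stand at 5 of 10, apical polarity regulators at 5 of 9 and Yorkie target genes at 2 of 13.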

How the data were processed

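The deposited files are peak lists. Per the deposited records, the authors made 1 list for each replicate and 1 for the pooled replicates, each from the alignments and 1 further file, and from these a set that passed a limit on the irreproducible discovery rate. The signal value and the summit offset of each region are the authors' own, deposited with the lists. Not given in the sources used here are the aligner, the peak caller, the thresholds and the scale of this signal. The labels name the antibody target as CG9609 in 1 field and as GFP in another. Lists in build dm3 were not used.

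Summits were taken as region start plus offset and compared with every TSS of the protein-coding transcripts in Ensembl release 115 (BDGP 6.54), which is the dm6 assembly. Genes with no entry under their listed symbol were matched by an older symbol (d, found as dachs). A summit within 500 bp of a TSS was a promoter peak, and one in an intron over 500 bp from every protein-coding TSS was an intronic peak. Replicates were matched by summits within 100 bp. Motifs were searched within 50 bp of summits. No test was run, since there was 1 group. Wilson intervals (95%) and the SD over 3 replicates are given, and depth is unknown. The lists carry no read counts, so intervals cover the number of genes only.

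The members, the 5 other lists and the motifs were chosen with earlier results of these data known. Named genes are the 10 members, up to 4 genes of each other list with the strongest promoter peaks, genes sharing a member's promoter peak and the TSS nearest to each intronic peak. Genes named beyond this rule were chosen after their values were seen. Alternatives were other windows, whole regions, canonical or nearest TSSs, stronger and looser limits, a consensus of the replicates and that consensus without each replicate. Python 3.11.15, numpy 2.4.6, pandas 2.3.3, scipy 1.17.1 and matplotlib 3.10.9 were used, and the counting was checked on simulated data.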

Additional observations from a re-analysis of the deposited data

How the results depend on the processing

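The count of members with a promoter peak, 5, was 3 in a consensus of the 3 replicates and 3 to 4 without each replicate in turn. It was 4 with a 250 bp window (15.3% of all protein-coding genes), 4 by nearest TSS (13.7%) and 4 in the stronger 1873 regions (10.7%). It was 6 by whole regions (20.1%), 7 with a 1000 bp window (21.6%) and 7 in the 5000 strongest pooled regions (22.9%). The share of all protein-coding genes moved with it, from 10.7% in the stronger 1873 regions to 22.9% in the 5000 strongest. The count of other pathway genes, 20, was 13 in the stronger 1873 regions and 14 to 24 under the other alternatives. Members with an intronic peak numbered 3 to 5 against 4, and peaks at members 8 to 16 against 11. Shares of all genes were not counted for these alternatives. The 5000 strongest regions, and the nearest TSS for other pathway genes, were chosen after seeing the data. No paired analysis was possible because there was 1 group. Depth is unknown, so its limits could not be given.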
